A study of Mus musculus with 82 samples.

Results

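Mouse embryonic stem cells were sorted, from their own nascent RNA, into cells with a read in a gene of the G1/S transition and cells with a read in a gene of the G2/M transition, and the 2 kinds of cell were compared. A cell was a barcode in a library of 10 scGRO-seq batches with at least 1000 reads and no read on a replication-dependent histone gene. The G1/S cells were selected by at least 1 sense read in Orc1, Ccne1, Ccne2 or Mcm6 and none in the other set. The G2/M cells were selected by at least 1 sense read in Wee1, Cdk1, Ccnf, Nusap1, Aurka or Ccna2 and none in the first set. These rules gave 366 G1/S cells and 461 G2/M cells, together 827 of 3726 cells with at least 1000 reads and of 5088 barcodes in all. Both names refer to the marker reads only and not to a measured phase. Of the other cells with 1000 reads, 1509 had a histone read, 275 had reads of both marker sets and 1115 had no marker read.

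The data come from single-cell global run-on sequencing (scGRO-seq), in which nuclei extend the RNA of engaged polymerases with click-ready nucleotides and each nucleus receives its own DNA barcode, so that every read marks the 3′ end of a nascent RNA on a known strand. All groups were V6.5 mouse embryonic stem cells, with no treatment named in the labels, grown in serum with leukemia inhibitory factor on gelatin, and sorted singly by light scatter, so that the phase of a cell was not measured apart from its reads. The G1/S and G2/M cells of a batch were therefore told apart by their marker reads alone. They came from the same set of plates but were not matched plate by plate. The labels give 53 libraries in these batches and do not say whether batches were separate cultures. The p-values set the difference within batches against its spread over the batches, a spread that may be technical.

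Libraries of the series shared reads, and the search for them covered all libraries, also those of other batches and assays. All 288 barcode sequences were used in more than 1 library, between 5 and 33 of them, and 28.9% of the deposited reads of the 10 batches were listed in more than 1 library and were left out, which kept 14352201 of 20196981 reads and between 18814 and 1122860 per library. With all deposited reads kept, the classes held 343 G1/S and 407 G2/M cells.

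The cell cycle of embryonic stem cells is short, with brief gap phases. Genes for replication licensing and S phase entry are driven by E2F factors around the G1/S transition, whereas genes for mitosis are held back until G2 by complexes that bind CHR elements in their promoters, many of which also hold CCAAT boxes, the sites of the activator NF-Y. Orc1 encodes the largest subunit of the origin recognition complex and Mcm6 a subunit of the replicative helicase. Ccne1 and Ccne2 encode the E-type cyclins that partner Cdk2 at S phase entry. In the other set, Cdk1 is the mitotic kinase, Ccna2 its cyclin A partner and Wee1 the kinase that restrains it, while Ccnf encodes the F-box protein cyclin F, Aurka the spindle pole kinase Aurora A and Nusap1 a protein that bundles spindle microtubules.

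The promoters of the genes that carried most of the selecting reads are shown because the sets were built on genes of these 2 programmes. RefSeq windows of 300 bases, from 250 before to 50 after the start site in GRCm38.p6, matched 7 of the 10 markers, and Ccne2, Wee1 and Ccna2 had no entry. Each is written 5′ to 3′ on the strand of the gene, with capitals for every match on either strand to E2F (TTTCGCGC, TTTGGCGC, TTTCCCGC or TTTGCCGC), CHR, or CCAAT. The letters searched for CHR were TTTGAA, then the same site with a central C, TTCGAA, and as the last form TTTAAA. The windows are chr4:108579204-108579503 (+) for Orc1, chr1:128359656-128359955 (−) for Mcm6, chr10:69352863-69353162 (−) for Cdk1 and chr17:24251360-24251659 (−) for Ccnf.
Orc1: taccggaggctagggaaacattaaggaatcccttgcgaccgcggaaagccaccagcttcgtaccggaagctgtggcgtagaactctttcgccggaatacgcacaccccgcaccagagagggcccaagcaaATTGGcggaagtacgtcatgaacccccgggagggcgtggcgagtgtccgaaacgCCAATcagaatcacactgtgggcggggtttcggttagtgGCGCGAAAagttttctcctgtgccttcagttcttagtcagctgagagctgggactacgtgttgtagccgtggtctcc
Mcm6: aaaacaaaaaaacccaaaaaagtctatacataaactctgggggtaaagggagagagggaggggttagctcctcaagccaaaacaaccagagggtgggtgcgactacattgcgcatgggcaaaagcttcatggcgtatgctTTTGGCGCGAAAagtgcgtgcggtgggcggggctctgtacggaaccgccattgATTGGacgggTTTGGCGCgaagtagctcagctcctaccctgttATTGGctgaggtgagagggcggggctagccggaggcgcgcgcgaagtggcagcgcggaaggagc
Cdk1: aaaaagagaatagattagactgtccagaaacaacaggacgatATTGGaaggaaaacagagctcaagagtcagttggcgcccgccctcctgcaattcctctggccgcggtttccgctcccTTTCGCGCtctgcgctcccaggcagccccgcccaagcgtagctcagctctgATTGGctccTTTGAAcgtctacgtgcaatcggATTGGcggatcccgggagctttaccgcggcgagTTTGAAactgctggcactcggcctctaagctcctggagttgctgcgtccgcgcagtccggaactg
Ccnf: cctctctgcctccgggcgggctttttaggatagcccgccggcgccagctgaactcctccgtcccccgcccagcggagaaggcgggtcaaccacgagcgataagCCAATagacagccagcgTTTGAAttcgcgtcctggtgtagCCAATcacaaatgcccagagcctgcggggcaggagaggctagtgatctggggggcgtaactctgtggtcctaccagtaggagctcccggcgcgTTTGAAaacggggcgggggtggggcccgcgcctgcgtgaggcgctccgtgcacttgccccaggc

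An E2F match stood in 2 of the 3 G1/S windows, 1 in Orc1 and 3 in Mcm6, and in 1 of the 4 G2/M windows, that of Cdk1. Over all 32851 windows of the same length, 2.26% held an E2F match. A CHR match stood in 3 of the 4 G2/M windows, those of Cdk1, Ccnf and Aurka, and in that of Ccne1 among the G1/S windows, against 28.8% of all windows. CCAAT was found in Cdk1, Ccnf and Aurka and in Orc1 and Mcm6, against 37.4% of all windows, and 11.3% of all windows held both CHR and CCAAT. The window of Nusap1 held none of these letters. The E2F matches of Mcm6 at 110 and 106 bases before the start site overlap each other.

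The selecting reads were few, and most cells were placed by a single one. Of the 366 G1/S cells, 301 (82.2%) had 1 marker read, 49 had 2 and 16 had 3 or more, with at most 5. Of the 461 G2/M cells, 361 (78.3%) had 1 marker read, 82 had 2 and 18 had 3 or more, with at most 4. Reads in more than 1 marker gene were present in 36 G1/S cells and 76 G2/M cells. The 452 selecting reads made up 0.0396% of the reads of the G1/S cells, and the 582 selecting reads 0.0407% of the reads of the G2/M cells.

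Within the G1/S set, Mcm6 and Orc1 did most of the placing. Mcm6 gave 197 reads in 173 cells (47.3% of the G1/S cells) and Orc1 gave 164 reads in 144 cells (39.3%). The cyclins gave fewer, with 48 reads of Ccne1 in 47 cells and 43 reads of Ccne2 in 41 cells. Within the G2/M set the reads were spread more widely. Ccnf gave 177 reads in 160 cells (34.7% of the G2/M cells), Cdk1 123 in 116, Nusap1 90 in 89, Wee1 83 in 78, Aurka 59 in 53 and Ccna2 50 in 49. Each gene therefore marked between 10.6% and 47.3% of the cells of its class. These values were used by the rule and are given as a description.

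Long genes collect more reads, and per length the order of the markers differed. Over all cells with at least 1000 reads, whatever their class, levels were taken as RPM (reads for every 1000000 reads) per kilobase of gene. Cdk1 had 1.83 and Mcm6 1.82 RPM per kilobase, with Ccne1 at 1.69, Ccnf at 1.52 and Orc1 and Ccna2 at 1.46 each. Wee1 had 1.12, Aurka 1.03, Ccne2 0.821 and Nusap1 0.818 on the same scale. Over the 10 batches, Cdk1 ran from 1.02 through a median of 1.68 to 3.90, Mcm6 from 1.15 through 1.64 to 4.10, and Ccnf from 0.963 through 1.39 to 5.19. Ccne2 ran from 0.219 through 0.536 to 1.28 and Nusap1 from 0.538 through 0.845 to 1.81. The ranges of neighbours in this order overlap. Such ranges do not compare genes within a batch, and the order of the markers was not tested. Batch Exp156 had the highest level of 6 of the 10 markers, Mcm6, Ccne1, Ccnf, Cdk1, Nusap1 and Aurka. These levels are scaled to all reads, genic or not. Exp156 also had the highest share of nuclear reads in introns, 55.3% in G1/S and 57.4% in G2/M cells. Whether its marker levels follow from this share was not tested.

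**Figure D1:**
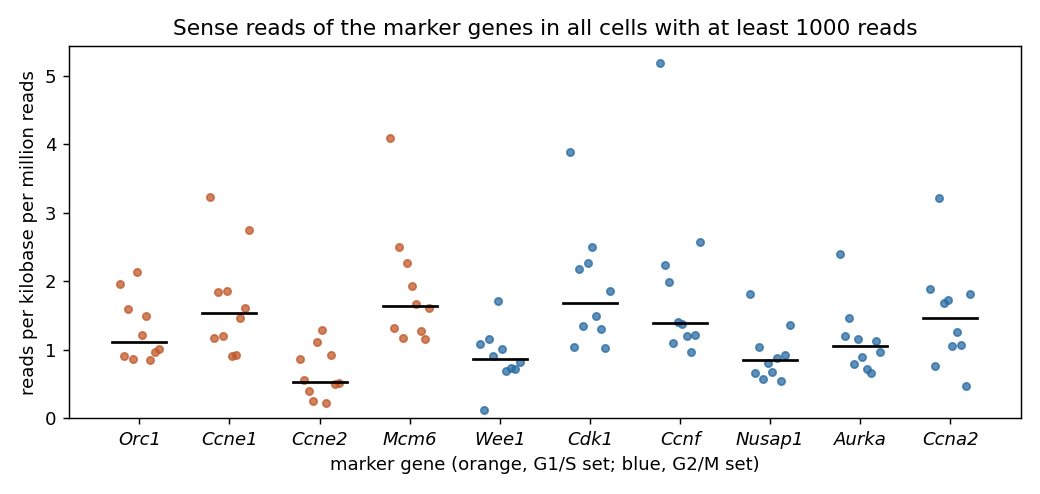
Sense reads of the 10 marker genes in all cells with at least 1000 reads, in RPM per kilobase of gene (y axis). Each point is 1 of 10 batches and each bar is the median. The batch medians lie between 0.536 for Ccne2 and 1.68 for Cdk1, and every gene overlaps its neighbours.

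Reads were counted in exons and introns, since nascent RNA still holds its introns, and in each of the 10 markers exons held a larger share of the reads than of the bases. Exons held 16.7% of the Orc1 reads, where 8.52% of the bases of the gene are exonic, and 61.0% of the Ccna2 reads, where 41.3% are. The busiest 100 bases of a marker held between 2.69% and 8.54% of its reads in 9 of the 10 genes. Nusap1 was the exception, with 73 of its 357 reads (20.4%) within 100 bases.

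Most of these reads lay in a short stretch of an intron of Nusap1, and some G2/M cells were placed by reads in it. Of the 357 Nusap1 reads, 71 (19.9%) ended in this stretch, each in a different cell. Their median mapping quality was 9, against 40 for the other 286 Nusap1 reads, and 40 of the 71 were under 10, so that their origin in Nusap1 is uncertain. Batch Exp264a gave 25 of the 71 and Exp236 gave 20, and 9 of the 10 batches gave at least 1. Of the G2/M cells, 22 had such a read and 13 had no other marker read, 5 of them in Exp264a. Without them there were 371 G1/S and 448 G2/M cells.

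The 2 classes had like numbers of cells in most batches, with somewhat more G2/M cells. G1/S cells made up 44.3% of all 827 members, and between 27.1% (Exp264a, 16 G1/S and 43 G2/M cells) and 52.9% (Exp260, 36 and 32) in single batches. G2/M cells outnumbered G1/S cells in 9 of the 10 batches, where the G2/M set holds 6 genes and the G1/S set 4. Exp208 had the fewest G1/S cells, with 10 against 15 G2/M cells, and Exp236 the most of both, with 105 and 120. Exp236 alone gave 27.2% of the member cells and 29.9% of their reads. Without the reads of that stretch of Nusap1, Exp264a held 17 G1/S and 38 G2/M cells.

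**Figure D2:**
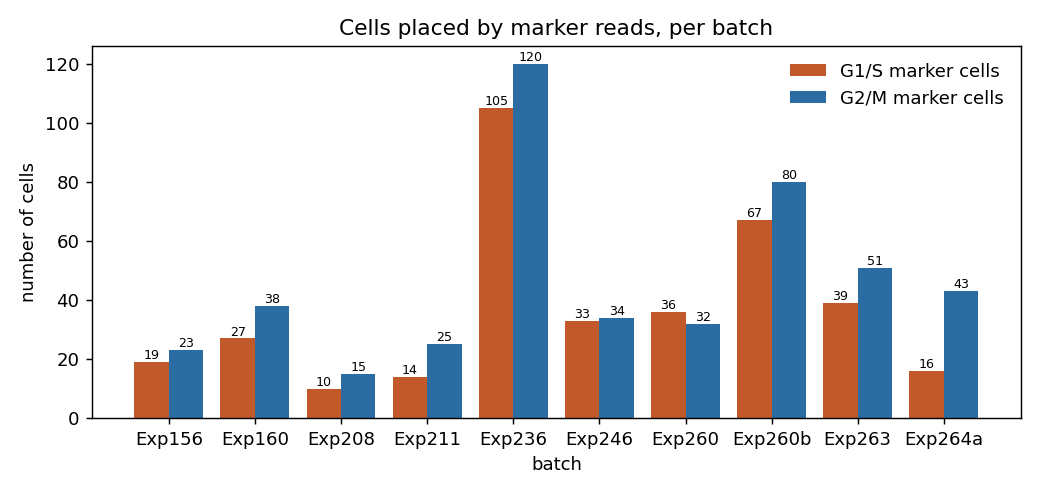
Number of cells (y axis) placed as G1/S (orange) or G2/M (blue) in each of the 10 batches (x axis), with the count above each bar. The count per batch and class runs from 10 to 120, and blue exceeds orange in every batch other than Exp260.

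Depth is tied to the rule, since a deeper cell is likelier to show a marker read, so the depth of the classes is a description. The median was 2481 reads in G1/S cells and 2544 in G2/M cells, with interquartile ranges of 1819 to 3629 and 1744 to 3896. Cells with no marker read had a median of 2014 and cells with reads of both sets 4210. Within batches the median was higher in G1/S cells in 3 and lower in 7, and the log2 ratio of the medians averaged -0.01 ± 0.15 (SD, n = 10 batches). The 2 classes compared here therefore had about the same depth, and both were deeper than the cells with no marker read.

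Markers of the 2 sets were found in the same cells about as often as their shares would give. Among the 2217 cells with 1000 reads and no histone read, 37.4% of the cells with a G2/M read also had a G1/S read, against 24.7% of those without. This count was taken at unequal depth. When every cell is brought to 1000 reads, as the mean over all draws, the shares were 13.9% and 11.8%. At that depth 53.5 cells were expected over the draws to hold a given G1/S and a given G2/M marker, summed over the 24 gene pairs, against 49.6 from the share of cells with each gene within batches. For the 6 pairs of G1/S markers the sums were 13.3 against 13.1, and for the 15 pairs of G2/M markers 26.8 against 24.2. Cells in common thus stood at 1.02 times the product of the shares within the G1/S set, 1.11 within the G2/M set and 1.08 between the sets. On these sparse counts, given as a description, markers of the same set did not share cells clearly more often than markers of different sets.

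With the 10 markers, the 67 histone genes and any gene that overlaps a marker on its strand left out, no gene passed the test between G1/S and G2/M cells. Reads were summed per batch and class, giving 540539 genic reads for G1/S cells and 686055 for G2/M cells, and 5594 genes with at least 50 reads were tested with limma voom, with the batch as a block. At a Benjamini-Hochberg adjusted p under 0.05, 0 genes (0%) were higher and 0 (0%) lower in G1/S cells, and the smallest adjusted p was 0.903. At an unadjusted p under 0.05, 146 genes (2.61%) were higher and 76 (1.36%) lower. Limma with a trend and no weights also called 0 genes, with 53 higher and 186 lower at an unadjusted p under 0.05. With sums per library these counts were 353 and 25 of 5098 genes tested. With every gene of at least 1 read they were 3550 and 133 of 20897, so the split between directions is not a stable result. The median log2 difference over all genes tested was 0.03.

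The precision of the estimates rose with the reads of a gene. The unadjusted 95% interval of the log2 difference lay within -1 and 1, that is within a doubling either way, for 4619 of the 5594 genes (82.6%). Among the 1229 genes with at least 200 reads this held for 1224, with a median margin of 0.40 either side of the estimate. For the typical gene tested, with a median of 107 reads, that margin was 0.59. The margin of a single gene is not the limit of the test adjusted over all genes, in which the difference of 1.35 for Calm2 also did not pass. In 556 of the genes tested (9.94%) over 20% of the reads lay within 100 bases, as in Nusap1. Without them 5038 genes were left and limma voom called 0, with 200 at an unadjusted p under 0.05.

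**Figure D3:**
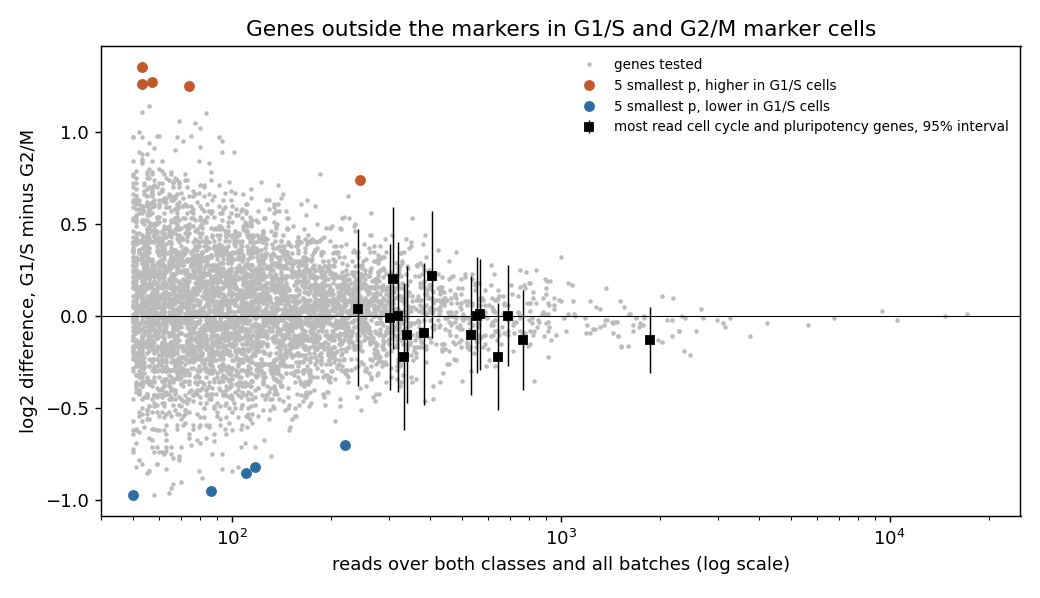
Log2 difference in RPM, G1/S minus G2/M cells (y axis), against the reads of each gene over both classes (x axis, log scale) for the 5594 genes tested. Black squares with 95% intervals are the most read genes of the cell cycle and pluripotency lists, and coloured points are the 5 genes with the smallest p in each direction. The spread narrows as reads increase, every black interval includes 0, and the coloured points lie between 50 and 245 reads.

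The genes with the smallest p are given with their values, none having passed the test on sums per batch. Calm2, one of the calmodulin genes, had between 40.8 and 147 RPM, here for every 1000000 genic reads of a batch and class, in the G1/S cells of the 10 batches, with a median of 67.0, and between 0 and 56.3, with a median of 23.2, in the G2/M cells. The value was higher in G1/S cells in all 10 batches although the 2 ranges overlap. It rested on 36 and 17 reads, with a log2 difference of 1.35 ± 0.36 (SE) and an adjusted p of 0.903. Acsl5, a long-chain acyl-CoA synthetase, had medians of 57.1 and 31.8 RPM (53 and 21 reads, log2 difference 1.25 ± 0.34, higher in 7 batches and lower in 2). Batch Exp236 gave 32 of its 53 reads in G1/S cells, at 164 RPM against 25.3 in G2/M cells. Greb1, an oestrogen-responsive gene, had medians of 72.2 and 24.3 (37 and 20 reads, 1.27 ± 0.35). Ypel2 followed, with a log2 difference of 1.26 ± 0.36. Slc49a4 had a log2 difference of 0.74 ± 0.22, although its medians were 103 RPM in G1/S and 106 in G2/M cells. Of its 141 reads in G1/S cells 83 came from batch Exp260b, and 178 of its 245 reads lay within 100 bases. The first 4 of these genes had under 80 reads in all.

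On the other side stood Abhd17c, a depalmitoylase, with medians of 41.8 RPM in G1/S and 82.4 in G2/M cells (24 and 62 reads, log2 difference -0.95 ± 0.32, lower in 9 of 10 batches). Cacna1b, a neuronal calcium channel subunit, had medians of 49.3 and 107 (log2 difference -0.85 ± 0.29). Kirrel3, a cell adhesion gene, had medians of 98.5 and 298 (72 and 148 reads, -0.70 ± 0.24, higher in 0 batches and lower in 9). Pcdha6, a protocadherin whose transcription unit shares its last exons with other members of the cluster, had 14 and 36 reads and a log2 difference of -0.97 ± 0.35. Ptk2b, a focal adhesion kinase relative, had -0.82 ± 0.29. All 5 had an adjusted p of 0.999.

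Genes of the same 2 programmes, other than the markers, come first. Of the list of 79 other G1/S and DNA replication genes, 52 had enough reads, and 0 were called in either direction. The median log2 difference of the 52 was 0.03, the same as over all genes tested. Pola1, the catalytic subunit of DNA polymerase alpha, had 346 to 748 RPM in G1/S cells with a median of 521, and 429 to 796 with a median of 516 in G2/M cells (306 and 384 reads, log2 difference 0.00 ± 0.14, 95% interval -0.27 to 0.28). Prim2, a primase subunit, had 0.20 ± 0.19 (-0.18 to 0.59), Hells, a chromatin remodeller, -0.01 ± 0.20 (-0.40 to 0.39) and Blm, the Bloom helicase, 0.04 ± 0.21 (-0.38 to 0.47). The ranges of both classes overlapped for each. Within batches Pola1 was higher in G1/S cells in 6 and lower in 4, and Hells higher in 7 and lower in 3. Prim2 and Blm were each higher in 4 and lower in 6. At an unadjusted p under 0.05 there was 1 member of the 52, near the share over all genes tested (2.61% higher and 1.36% lower). It was Wdr76, with a log2 difference of 0.63 ± 0.32 on 52 and 42 reads and an adjusted p of 0.999.

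Of the list of 81 other G2 and mitosis genes, 46 were tested and 0 called, with a median log2 difference of 0.01. Of the 46, 0 had an unadjusted p under 0.05 in the limma voom fit, against 2.61% higher and 1.36% lower over all genes tested, a difference too small to read in 46 genes. Cks2, a small Cdk-binding subunit, had 68.0 to 858 RPM in G1/S cells with a median of 338, and 148 to 911 with a median of 352 in G2/M cells (248 and 309 reads, log2 difference 0.00 ± 0.16). Of its 557 reads, 539 lay within 100 bases at Gm22806, a snoRNA gene inside Cks2 on the same strand, from which they cannot be told apart. Top2a, the topoisomerase that untangles sister chromatids, had medians of 259 and 292 (-0.09 ± 0.19, 95% interval -0.48 to 0.29), with 135 of its 382 reads within 100 bases. Mybl2, a factor that switches on mitotic genes, had -0.10 ± 0.19 (-0.47 to 0.27) and Mki67, the coat of mitotic chromosomes, 0.00 ± 0.20 (-0.41 to 0.40). The G1/S and G2/M ranges overlapped for all 4. Within batches Cks2 and Top2a were each higher in G1/S cells in 5 and lower in 5. Mybl2 was higher in 3 and lower in 7, and Mki67 higher in 6 and lower in 4. No order of the classes can be read from these values.

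Cyclins, kinases, inhibitors and checkpoint genes were 52 in number, of which 28 were tested and 0 called, with a median log2 difference of 0.02. Cdk6, the G1 kinase that partners D-type cyclins, had medians of 407 RPM in G1/S and 390 in G2/M cells (255 and 314 reads, log2 difference 0.01 ± 0.15, 95% interval -0.29 to 0.31), with 127 of its 569 reads within 100 bases. E2f3, a factor of the E2F family, had medians of 445 and 427 (-0.10 ± 0.16). Mdm4, an inhibitor of p53, had 0.22 ± 0.17 (-0.12 to 0.57) and Fbxw7, the adaptor that marks cyclin E for destruction, -0.22 ± 0.20 (-0.62 to 0.18). All 24 cohesin and condensin genes were tested, with 0 called and a median log2 difference of -0.10, or -0.05 without the 1 member that had over 20% of its reads in 100 bases.

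Summed over a list, the reads also overlapped between the classes. The other G1/S and replication genes together had 6302 ± 1140 RPM in G1/S cells and 6142 ± 735 in G2/M cells (SD, n = 10 batches), and were higher in G1/S cells in 7 batches and lower in 3, with a mean log2 ratio of 0.03 ± 0.15. The other G2 and mitosis genes had 6408 ± 1522 and 6808 ± 1587, higher in 4 batches and lower in 6, with a mean log2 ratio of -0.09 ± 0.15. The cyclin and checkpoint list had a mean log2 ratio of -0.09 ± 0.16 and the cohesin and condensin list -0.12 ± 0.18, which was -0.04 with cells thinned to 1000 reads. Without batch Exp264a the ratio was -0.05 for the cyclin and checkpoint list and -0.07 for the cohesin and condensin list. Both lists were lower in G1/S cells in 7 batches and higher in 3. The SDs are those of single batches, and no test was made of a list.

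**Figure D4:**
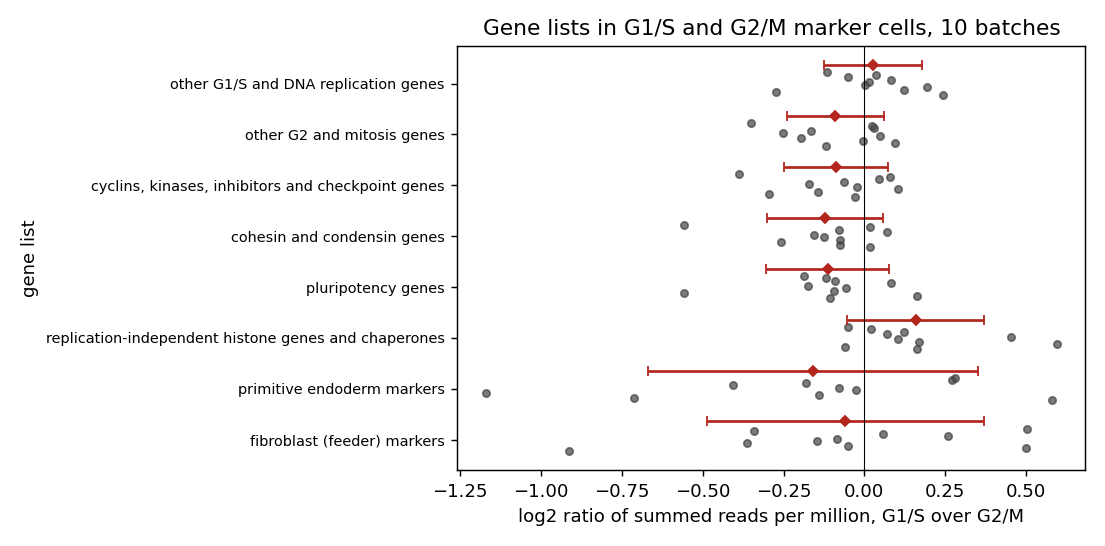
Log2 ratio of the summed RPM of a gene list, G1/S over G2/M cells (x axis), for 8 lists (y axis). Grey points are the 10 batches, and red diamonds with bars are the mean and SD. The means lie between -0.16 and 0.16 and each SD bar crosses 0.

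Histone variant and chaperone genes that are transcribed outside S phase had the highest ratio of the 8 lists with all reads of the cells, but not with cells thinned to 1000 reads, where their ratio was 0.05 and that of the fibroblast markers 0.17. Their 22 genes together had 2409 ± 479 RPM in G1/S cells and 2136 ± 270 in G2/M cells, were higher in G1/S cells in 8 batches and lower in 2, and had a mean log2 ratio of 0.16 ± 0.21. Of the 22 genes 13 were tested and 0 called, with a median log2 difference of 0.14, or 0.22 without the 2 that had over 20% of their reads in 100 bases. Macroh2a1, the macroH2A variant, had the highest value among them, 0.49 ± 0.26, and was named after its value was seen.

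Reads of 12 embryonic stem cell markers were counted, as a description of the labelled cell type. Such reads alone do not establish it, since markers of other cells also had reads. The 12 fibroblast markers had 396 and 505 in G1/S and G2/M cells, and the 12 primitive endoderm markers 342 and 482. All 12 embryonic stem cell markers had reads in both classes, from 4 and 6 reads for the short gene Dppa5a to 209 and 266 for Esrrb. Pou5f1 had 20 and 25 reads, Nanog 19 and 22 and Sox2 15 and 22, too few for the test. Esrrb, a nuclear receptor of the naive state, had 171 to 1062 RPM in G1/S cells with a median of 396, and 280 to 923 with a median of 363 in G2/M cells, with a log2 difference of 0.00 ± 0.16 (95% interval -0.33 to 0.32). Of the 12 markers 5 had enough reads for the test and 0 passed. The others tested were Sall4 (0.25 ± 0.29), Tdgf1 (0.07 ± 0.28), Tfcp2l1 (0.03 ± 0.20) and Zfp42 (-0.13 ± 0.25).

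Of the 37 genes of the wider pluripotency list 19 were tested and 0 called, with a median log2 difference of 0.00. The 3 most read members were somewhat lower in G1/S cells without passing the test. Jarid2, a partner of Polycomb complex 2, had medians of 1362 and 1569 RPM (786 and 1075 reads, log2 difference -0.13 ± 0.09, lower in 8 of 10 batches). Tet1, a methylcytosine dioxygenase, had -0.13 ± 0.13 and Rif1, a replication timing factor, -0.22 ± 0.15 (lower in 9 of 10 batches, adjusted p = 0.999). The list as a sum had 5256 ± 1205 and 5646 ± 1083 RPM, lower in G1/S cells in 8 batches, with a mean log2 ratio of -0.11 ± 0.19. The ratio was -0.06 without batch Exp208 and -0.03 with each gene counted once per cell.

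Markers of other cells were read as follows. The 12 primitive endoderm markers together had 663 ± 156 RPM in G1/S and 779 ± 317 in G2/M cells, a range of 440 to 885 against 328 to 1294. Their mean log2 ratio of -0.16 ± 0.51 was -0.05 without batch Exp211, which had 563 RPM in G1/S and 1267 in G2/M cells, and -0.02 without the genes that had over 20% of their reads in 100 bases. The 12 fibroblast markers had 696 ± 362 and 736 ± 401. Their mean log2 ratio of -0.06 ± 0.43 was 0.04 without batch Exp156, which had 735 RPM in G1/S and 1385 in G2/M cells. Only 1 of the 12 fibroblast markers had enough reads for the test, and over 20% of its reads lay within 100 bases. The 9 markers of 2-cell-like cells had 0 reads in either class, which allows up to 2.45 RPM over the 1226594 genic reads (3 counts, counting error only).

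No class of position along the genome passed the test between the classes either. Shares of reads were taken with the reads of marker and histone genes left out, and 8 were tested with a 2-sided exact sign-flip test over 10 batches, whose smallest possible p is 0.00195. Introns held 39.2% ± 7.02 of the nuclear reads in G1/S cells and 39.9% ± 7.47 in G2/M cells, a difference of -0.743 ± 1.53 percentage points (exact p = 0.15, adjusted over 8 shares 0.823). Exons held 7.97% and 7.67%, a difference of 0.308 ± 0.846 (exact p = 0.309) that was 0.0688 without batch Exp208 and 0.0437 with all deposited reads. Polymerases pause near start sites, but the paper describes scGRO-seq as less efficient at capturing them there. The next share is therefore a poor measure of pausing. Reads within 500 bp of a start site made up 2.70% and 2.76%. The difference of -0.0634 ± 0.245 was negative in 7 batches and positive in 3 (exact p = 0.441). It was -0.128 without batch Exp208 (unadjusted exact p = 0.0352) and -0.118 with cells that had a histone read kept (unadjusted exact p = 0.00586).

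The remaining shares did not pass the test either. Antisense reads in genes made up 17.5% in G1/S and 17.2% in G2/M cells (difference 0.311 ± 0.75, exact p = 0.221), and reads between genes 35.3% and 35.2% (0.124 ± 1.95, exact p = 0.848). Genes over 100 kb, which polymerases need longest to cross, held 37.0% and 37.1% of the sense reads (-0.12 ± 1.02, exact p = 0.723). Chromosome X held 2.76% and 2.78% (exact p = 0.641). The mitochondrial genome held 0.346% and 0.342% of all reads (exact p = 0.779), with batches between 0.0507% and 1.33% in G1/S cells. Some of these differences moved or turned with the choice of cells. Requiring 2 marker reads per cell left 65 G1/S and 100 G2/M cells, with both classes in 9 batches. Chromosome X was then 0.292 percentage points apart (unadjusted exact p = 0.00781), long genes 0.837 and reads between genes -0.514. With cells that had a histone read kept antisense reads were 0.496 apart (unadjusted exact p = 0.0332). For every share the SD between batches exceeded the SD of the difference within batches, and the smallest adjusted p of the 8 was 0.823.

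**Figure D5:**
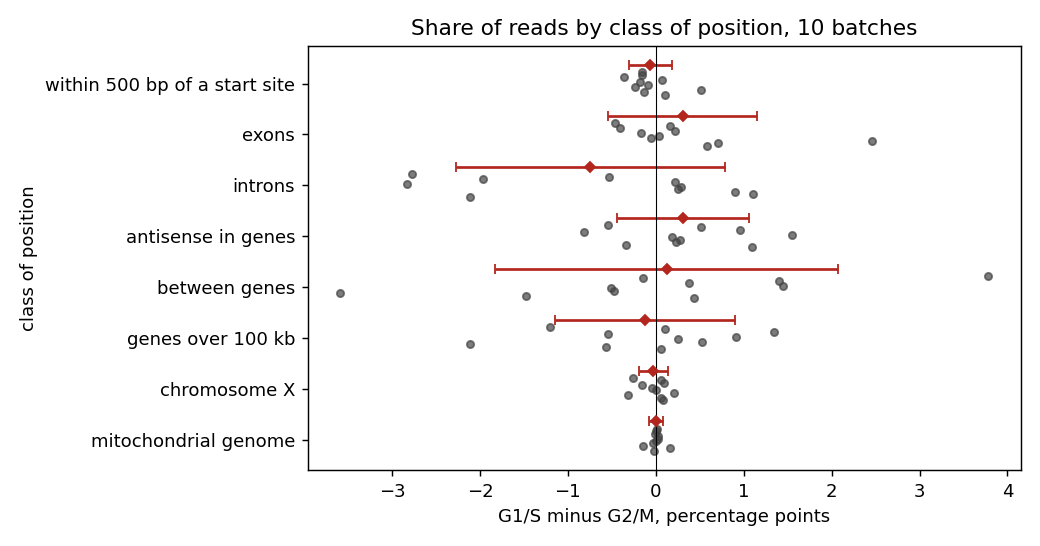
Difference in the share of reads, G1/S minus G2/M cells, in percentage points (x axis) for 8 classes of position (y axis). Grey points are the 10 batches, and red diamonds with bars are the mean and SD. Each bar crosses 0, and the highest point for exons, 2.46, is batch Exp208.

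Polymerases that have passed the end of a marker gene were not used by the rule and give a view of the same loci. Over the 10 kb past the 4 G1/S markers, less the parts inside Cc2d1b and Lct, 9 reads fell in G1/S cells and 8 in G2/M cells. This came to 4.57 ± 7.09 and 3.05 ± 5.20 RPM (exact sign-flip p = 0.625), and since 5 batches had any read, the smallest p possible was 0.0625. The difference of 1.52 RPM turned to -0.416 without batch Exp246 and was 0.153 with all deposited reads. Past the 6 G2/M markers, less the part inside Tedc2, 13 reads fell in G1/S cells and 20 in G2/M cells, at 14.8 ± 21.7 and 12.7 ± 12.4 RPM (exact sign-flip p = 0.93). Cdk1 gave 5 and 7 of these reads and Ccna2 gave 1 and 5. Without batch Exp208, whose G1/S cells had 70.5 RPM there, the difference past the G2/M markers turned from 2.15 to -5.44 RPM (exact p = 0.156). At this depth no difference past either set of markers was detectable.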

How the data were processed

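Nascent RNA was measured in single mouse embryonic stem cell nuclei. The authors trimmed adaptors with Cutadapt, split reads by cell barcode, removed reads that aligned to ribosomal DNA, aligned the rest to mm10 (GRCm38) with Bowtie2 and removed duplicates with UMI-tools, and deposited 1 list of reads per library. The deposited lists hold a mapping quality score for each read and no column of counts, so reads were counted as lines, at their RNA 3′ end, on curated RefSeq gene models. Reads listed in more than 1 library of the series, of any batch or assay, were left out. Cells and classes followed the rule given at the opening of the report. The members and gene lists were chosen with earlier results of these data known.

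Reads were summed per batch and class and tested with limma 3.58.1 (R 4.3.3), with voom weights and the total of genic reads as scale. The batch was a block, because both classes were drawn from the set of plates of each batch. Genes needed at least 50 reads, and the Benjamini-Hochberg adjustment ran over all 5594 genes. The fit was tested on simulated data. Shares of reads and reads past gene ends were compared by exact sign-flip tests over 10 batches (Python 3.11.15). The scale for reads past gene ends was all reads outside marker and histone genes, genic or not. The 20 sums held 14222 to 236811 genic reads. Intervals of the difference between the classes come from the limma fit and reflect its spread over the batches. The floor for markers without reads comes from counts and covers counting error only. Named genes were the markers, the 5 smallest p in each direction, the most read members of 4 lists, and the embryonic stem cell markers. Genes called under an alternative, Wdr76 and Macroh2a1 were named after their values were seen. Alternatives changed the reads, cells, filters, scaling, weights, block and batches. Libraries of other batches were not used here. The sequence of a short stretch of Nusap1 where reads piled up is not reported here.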

Additional observations from a re-analysis of the deposited data

Results flagged for a closer look

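Over the 20 quantities with a value in each of 10 batches, 5 had a batch that stood far from the others, where chance alone flags about 1 in 20. Batch Exp208, which had 10 G1/S and 15 G2/M cells, was that batch in 4 of the 5. Its share of reads in exons was 2.46 percentage points higher in G1/S than in G2/M cells, against 0.711 for the next batch. Its share within 500 bp of a start site was 0.515 points higher, against 0.104. Its reads past the ends of the G2/M markers were 70.5 RPM higher in G1/S cells, against 8.90. That value rests on few reads, since its G1/S cells held 28394 reads. Over all 10 batches 13 reads of G1/S cells fell past these ends. Its pluripotency genes had a log2 ratio of -0.557, against -0.187. Batch Exp264a had a log2 ratio of -0.557 for the cohesin and condensin genes, against -0.259 for the next batch.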

How the results depend on the processing

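Most cells were placed by 1 read, and batch Exp236 gave 29.9% of the reads of the members. The gene test called 0 genes in either direction under 13 of 16 other settings, including the fit without the batch as a replicate block (0 and 0) and the cells placed without the 71 reads in a short stretch of Nusap1 or without genes that had over 20% of their reads in 100 bases (0 and 0 each, both chosen after seeing the data), and without each of the 10 batches in turn (0 to 0). With all deposited reads 1 gene was higher in G1/S cells, Nkain2 (log2 difference 1.01 ± 0.21, limma adjusted p = 0.0234, against 0.53 ± 0.19 and 0.999). With cells that had a histone read kept 2 were higher, Gpr158 (0.47 ± 0.09, against 0.65 ± 0.27 in the 827 cells) and Brinp3 (0.46 ± 0.10, against -0.02 ± 0.23), which in the 827 cells had 172 of 225 and 180 of 214 reads within 100 bases. Batch Exp208 gave 99 and 56 reads of Gpr158 and 68 and 83 of Brinp3 in G1/S and G2/M cells. Batch Exp211 gave 38 and 21 reads of Nkain2. The most reads in 1 cell were 20 for Nkain2, 31 for Gpr158 and 39 for Brinp3. With cells that had a histone read kept 1 gene was lower, Slc22a19 (-1.60 ± 0.35). With sums per library 1 was higher, Acsl5 (1.12 ± 0.23, limma adjusted p = 0.00739, against 1.25 ± 0.34 and 0.903 with sums per batch). The cause was not tested.

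No share of reads passed the unadjusted threshold in the main comparison. With cells that had a histone read kept, reads within 500 bp of a start site were -0.118 percentage points apart (exact p = 0.00586) and antisense reads 0.496 (exact p = 0.0332), while long genes turned to 0.485, chromosome X to 0.061 and the mitochondrial genome to -0.00163. With 2 marker reads per cell, 9 batches held both classes. In these, reads between genes turned to -0.514, long genes to 0.837, chromosome X to 0.292 (exact p = 0.00781) and the mitochondrial genome to -0.112. With all deposited reads long genes turned to 0.0877 and chromosome X to 0.025, with the filter on 750 genes per cell chromosome X to 0.0254, and with cells thinned to 1000 reads the share between genes to -0.0481. Without the 71 reads in Nusap1 the share between genes was 0.0326, near start sites -0.0414 and the mitochondrial genome 0.000297. Without each batch in turn the differences ran from -0.128 (without Exp208, exact p = 0.0352) to -0.0297 near start sites, -0.282 to 0.537 between genes, 0.0688 (without Exp208) to 0.394 for exons, -0.949 to -0.511 for introns, 0.173 to 0.436 for antisense reads, -0.283 to 0.101 for long genes, -0.0516 to 0.00634 for chromosome X and -0.0145 to 0.0199 for the mitochondrial genome. Past the ends of the G1/S markers they ran from -0.416 to 3.10 RPM and past those of the G2/M markers from -5.44 to 5.60. The cause was not tested. Depth and the gene lists moved by less than 1 SD of the batches under every setting run for them.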

Other observations

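Antisense reads inside the 10 marker genes were not used by the rule. There were 125 in G1/S cells (110 RPM, reads for every 1000000 reads) and 98 in G2/M cells (68.6 RPM). The value was higher in G1/S cells in 9 of 10 batches, at 94.4 ± 51.5 against 64.5 ± 43.1 RPM (SD, n = 10 batches, exact sign-flip p = 0.0215). This comparison was chosen after its values were seen, and over the 11 sign-flip tests run here its adjusted p was 0.236. It ran the same way in both sets, with 49 and 37 reads over the G1/S markers and 76 and 61 over the G2/M markers. Orc1 gave 20 and 11 of them, Wee1 20 and 10, and Ccnf 17 and 17, while Ccne1 (5.27 and 5.60 RPM) and Nusap1 (13.2 and 13.3 RPM) had about the same level in both. Batch Exp236 gave 63 of the 125 and 46 of the 98 reads. Genes on the other strand overlap Orc1, Ccne2, Ccna2 and Nusap1, and their reads cannot be told apart from antisense reads of the markers.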
